A study of Homo sapiens and Mus musculus with 28 samples.

Results

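The genes described here encode secreted cytokines of 2 families, the IL-1 family (IL1A, IL1B, IL1RN, IL36G and IL18) and the IL-6 family (IL6, IL11, LIF and CLCF1). They were chosen by name, with earlier results of these data known, as the rows that carry these symbols with 1 row per Ensembl ID. They make up 9 of the 35135 human gene IDs counted in SCC1, an established human head and neck squamous cell carcinoma (HNSCC) line. The study concerns HNSCC cells that lack the RNA exonuclease REXO4, and 24 of its 28 libraries are from SCC1, with 3 libraries in each of 8 groups. Going by the labels, 15 SCC1 libraries were taken as a knockout experiment. They held REXO4-knockout cells labelled KO_2 with H151 (H-151, which blocks STING, the adaptor that senses cytosolic DNA signals), KO_2 with BX_795 (BX-795, an inhibitor of TBK1 and other kinases), the knockouts R4KO_2 and R4KO_1 with vehicle, and control cells with vehicle (Ctrl Vehicle). The other 9 SCC1 libraries, H151_iR4, iR4 and Vehicle, were taken as a separate experiment, where iR4 is written as the labels give it. The labels name no experiment or batch. They give no dose, time or guide, and do not say whether a knockout is a single clone or whether replicates are separate cultures, so p-values may measure only technical spread. The remaining 4 libraries, from mouse tumors, are used only in the closing section.

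IL-1α (IL1A) and IL-1β (IL1B) bind the same receptor, and signal through MyD88 and IRAK kinases to NF-κB and AP-1. The IL-1 receptor antagonist (IL1RN) occupies that receptor without signalling, IL-18 and IL-36γ (IL36G) use related receptors, and IL-1β and IL-18 are made as precursors that caspase-1 can cleave. IL-6, IL-11, LIF and CLCF1 share the signalling chain gp130 (IL6ST), which activates JAK kinases and STAT3. In squamous epithelium IL-1α is held ready in keratinocytes and released on damage, and IL-6 family cytokines are themselves classic targets of IL-1 signalling.

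Total counts ran from 16.04 to 27.94 M per SCC1 library, and the libraries with H151 or BX_795 in KO_2 cells were deeper (21.36 to 27.94 M) than those of R4KO_2 (17.53 to 17.67 M). Levels are CPM (counts relative to library size, scaled with TMM factors), given as mean ± SD with n = 3. REXO4 stood at 17.9 ± 1.53 CPM in KO_2 H151, at 18.9 ± 0.441 in KO_2 BX_795, 6.30 ± 1.17 in R4KO_2, 9.39 ± 0.341 in R4KO_1 and 73.9 ± 3.19 in Ctrl Vehicle, so some transcript remained in the knockouts. In the iR4 experiment it stood at 91.6 ± 2.28 CPM in H151_iR4, 61.4 ± 2.88 in iR4 and 96.2 ± 3.53 in Vehicle. The libraries labelled KO_2 did not resemble R4KO_2 in every respect: 23 genes at least 2 log2 units higher in R4KO_1 than in R4KO_2 and Ctrl Vehicle had a median of 0.92 log2 CPM in KO_2 H151 libraries and 1.04 in KO_2 BX_795 libraries, against −2.04 in R4KO_2 and 0.89 in R4KO_1. These genes are not a mark of R4KO_1 alone. Their median was −0.29 in Vehicle, −0.35 in H151_iR4 and −0.63 in iR4, against −1.95 in Ctrl Vehicle. The drug comparisons are therefore also given against R4KO_1. Drug, knockout line and a possible batch cannot be told apart in them. All 9 squamous epithelium markers exceeded 1 CPM on average, while T and B cell markers summed to at most 0.411 CPM in any library. Of 7 myeloid markers TYROBP was at 0 in all 24 libraries and PTPRC had 0 to 3 counts per group. CSF1R alone carried that list, with group means from 9.34 to 28.4 CPM, highest in iR4 and lowest in KO_2 BX_795 and H151_iR4. The 6 fibroblast markers summed to 22.5 to 47.9 CPM per library, of which COL1A1 made up most, with group means from 21.4 to 46.2 CPM, while COL1A2 had 0 to 3 and DCN 0 to 15 counts per group.

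The IL-1 genes cluster on the long arm of chromosome 2, where in GRCh38 (GENCODE v29) IL1A lies on the minus strand at chr2:112773915-112784590, IL1B on the minus strand at chr2:112829751-112836903, IL36G on the plus strand at chr2:112973203-112985665 and IL1RN on the plus strand at chr2:113107214-113134016. IL18 and CLCF1 are on the minus strand of chromosome 11, at chr11:112143251-112164117 and chr11:67364168-67374177. IL6 is on the plus strand at chr7:22725884-22732002, IL11 on the minus strand at chr19:55364389-55370463 and LIF on the minus strand at chr22:30240447-30246851. Promoter windows of RefSeq (GRCh38.p14, 250 bases before to 50 after an annotated start) were at hand for 6 of the 9 genes. The windows below belong to the genes with a match to the NF-κB motif (GGG, any 2 bases, TT, any base, CC) or the AP-1 motif (TGANTCA) among those that moved with REXO4 or iR4, with 1 window per gene, and capitals mark the matches.
IL1A, minus strand, chr2:112784351-112784650: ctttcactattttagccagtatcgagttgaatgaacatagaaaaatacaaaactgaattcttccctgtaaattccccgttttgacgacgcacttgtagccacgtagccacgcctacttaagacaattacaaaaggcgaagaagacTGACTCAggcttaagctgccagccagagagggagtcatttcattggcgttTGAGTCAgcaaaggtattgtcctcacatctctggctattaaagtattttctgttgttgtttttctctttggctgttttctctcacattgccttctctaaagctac
IL1RN, plus strand, chr2:113127348-113127647: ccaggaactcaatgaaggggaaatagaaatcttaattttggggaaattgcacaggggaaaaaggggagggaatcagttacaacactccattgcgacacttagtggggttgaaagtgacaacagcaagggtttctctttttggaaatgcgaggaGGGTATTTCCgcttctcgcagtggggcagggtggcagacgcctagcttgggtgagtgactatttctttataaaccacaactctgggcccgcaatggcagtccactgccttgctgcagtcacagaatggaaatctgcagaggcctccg
IL6, plus strand, chr7:22726950-22727249: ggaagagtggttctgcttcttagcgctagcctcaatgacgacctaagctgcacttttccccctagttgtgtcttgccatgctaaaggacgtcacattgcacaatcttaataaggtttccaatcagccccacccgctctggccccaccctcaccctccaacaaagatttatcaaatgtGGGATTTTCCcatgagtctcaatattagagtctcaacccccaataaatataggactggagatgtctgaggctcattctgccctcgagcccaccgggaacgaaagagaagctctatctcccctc
IL11, minus strand, chr19:55370414-55370713: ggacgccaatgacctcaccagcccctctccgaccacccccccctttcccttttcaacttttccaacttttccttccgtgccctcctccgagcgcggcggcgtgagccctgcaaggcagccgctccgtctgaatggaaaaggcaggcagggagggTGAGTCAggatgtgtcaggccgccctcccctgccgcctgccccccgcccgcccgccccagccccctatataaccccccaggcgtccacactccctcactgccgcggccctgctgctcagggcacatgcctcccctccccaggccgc
The IL1A window held 2 AP-1 matches, 105 and 55 bases before the start, and the IL11 window held 1, 96 bases before it. The NF-κB match of IL6 lay 73 bases and that of IL1RN 97 bases before the start. These positions depend on the window printed, as IL1A and IL1RN have other annotated starts. From another IL1A start the AP-1 matches lay 12 bases before and 39 after it. From another IL1RN start the NF-κB match lay 13 bases after it. A further IL1RN window held no NF-κB match but an AP-1 match 223 bases before its start. Both strands were searched, and 7.71% of 35116 promoter windows held an AP-1 match and 5.68% an NF-κB match. The IL1B and IL36G windows held neither. These are matches of letters and not measured binding.

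Many cytokine mRNAs carry AU-rich elements in the 3′ UTR, which proteins such as ZFP36 bind to speed decay. The nonamer TTATTTATT occurred in the 3′ UTRs of 4 of the 9 genes, against 8.21% of 19141 genes, with 6 copies in IL11 and 2 each in IL1B, LIF and CLCF1. The first copy in each is shown, from GENCODE v29 transcripts on GRCh38, with the nonamer in capitals.
IL1B: gcttccctatTTATTTATTtatttgtttg
IL11: aagccagatcTTATTTATTtatttatttc
LIF: ctccgggcccTTATTTATTatttaaacat
CLCF1: gtattaatatTTATTTATTtggagatgtt
IL6 held no nonamer but had the highest density of the shorter ATTTA, with 6 copies in 429 bases of 3′ UTR, against a median of 1.58 per kb over all genes. IL1RN and IL18 held neither.

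Per length of transcript, IL1A was the most abundant of the 9 genes in SCC1, with 48.6 CPM per kb on average over 24 libraries. IL18 followed at 21.5, LIF at 7.60, IL1B at 6.18, IL11 at 5.58, CLCF1 at 4.72 and IL6 at 2.16 CPM per kb, and the antagonist IL1RN stood at 0.912. IL36G was hardly detected, with 82 counts in all 24 libraries and 0 to 8 in any library, and was too low to test. It summed to 7 counts in KO_2 H151, 14 in KO_2 BX_795, 15 in R4KO_2, 14 in R4KO_1 and 18 in Ctrl Vehicle, and to 7 in H151_iR4, 3 in iR4 and 4 in Vehicle. The other 8 genes were tested in each comparison.

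The genes differed most in how far they moved across the 8 groups. Group means of IL6 spanned 25.5-fold, those of IL1B 17.7-fold, IL1A 14.6-fold, IL1RN 12.2-fold and IL11 6.90-fold. LIF spanned 2.45-fold, CLCF1 1.57-fold and IL18 1.45-fold. IL1A, IL1B, IL1RN and LIF were highest in R4KO_2, and IL6, IL11, CLCF1 and IL18 in iR4. The lowest mean was in H151_iR4 for IL1A, IL1B, IL6, IL11 and LIF, in KO_2 H151 for IL1RN, and in R4KO_1 for IL18 and CLCF1. In the order of IL6 levels H151_iR4, Vehicle and Ctrl Vehicle overlapped in turn, KO_2 H151 stood apart at 2.14 CPM, R4KO_1, KO_2 BX_795 and R4KO_2 overlapped in turn from 6.14 to 7.30 CPM, and iR4 stood apart at 11.6 CPM. In the order of IL1A levels, R4KO_1 overlapped KO_2 H151 below it and iR4 above it, and iR4 overlapped KO_2 BX_795, while the remaining neighbours did not overlap. The untreated levels of the 2 experiments also differed: IL1A was at 77.2 ± 6.83 CPM in Ctrl Vehicle and 20.4 ± 1.74 in Vehicle, and IL1B at 11.4 ± 0.997 and 4.42 ± 1.11 CPM. Experiment and control cannot be told apart in that difference.

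**Figure D1:**
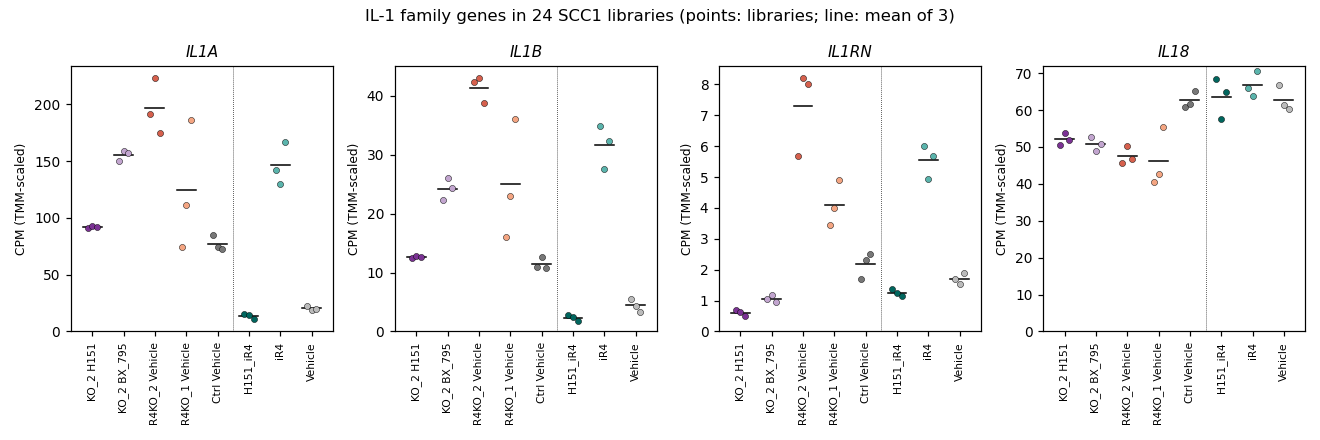
TMM-scaled CPM of 4 IL-1 family genes in each of 24 SCC1 libraries (points; line, mean of 3), with the knockout experiment left of the dotted line and the iR4 experiment right of it. IL1A, IL1B and IL1RN were highest in R4KO_2 and were low in H151_iR4, while IL18 means stayed between 46.2 and 66.7 CPM.

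IL1A, IL1B, their antagonist and most of the IL-6 family were called higher in the REXO4 knockouts, although IL1A and IL11 in R4KO_1 overlapped the control. In R4KO_2 6 of the 8 tested genes were higher than in Ctrl Vehicle, IL18 was lower and CLCF1 was not called. In R4KO_1 the same 6 were higher and IL18 and CLCF1 lower. Calls are edgeR quasi-likelihood tests at a Benjamini-Hochberg adjusted p under 0.05 over all genes, and the response was broad: 34.0% of 14348 genes were higher in R4KO_2 and 32.2% lower, and 33.0% were higher in R4KO_1 and 31.4% lower. A call in either direction is therefore common, and size says more. At 2-fold or more, 5 of the 8 genes were higher in R4KO_2, against 8.21% of all genes, and 2 of the 8 in R4KO_1, against 7.57%. Because the genes were chosen with earlier results of these data known, such shares, here and below, only describe them. They do not test whether the set responds apart from other genes. Libraries that do not overlap are common too, for 73.8% of 14000 genes in iR4 against Vehicle. That share is not given for the other comparisons, so lack of overlap, here and below, only describes a gene. The median log2 fold change of the 8 genes was 1.33 in R4KO_2 and 0.74 in R4KO_1, against 0.02 over all genes in each. Marker lists moved in the same libraries. The summed squamous markers ran from 3310 to 3404 CPM in R4KO_2 and 2825 to 3338 in R4KO_1, against 3964 to 4314 in Ctrl Vehicle, with 3 of 9 higher and 5 lower in R4KO_2 and 3 higher and 6 lower in R4KO_1. The fibroblast markers, mostly COL1A1, summed to 39.1 to 42.5 CPM in R4KO_2 and 38.6 to 42.3 in R4KO_1, against 23.5 to 24.4 in Ctrl Vehicle, with 3 of 3 tested higher in R4KO_2 and 2 of 3 in R4KO_1. The myeloid markers, nearly all CSF1R, ran from 24.3 to 27.3 CPM in R4KO_2 and 22.7 to 25.1 in R4KO_1, against 12.9 to 16.3 in Ctrl Vehicle. The part of these lists in the cytokine differences was not tested. In bulk RNA, a change in the share of cells that express a gene and a change in RNA per cell cannot be told apart.

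IL1A stood at 191.2, 223.2 and 175.1 CPM in R4KO_2, at 74.5, 111.6 and 186.3 in R4KO_1 and at 85.0, 74.2 and 72.4 in Ctrl Vehicle. All R4KO_2 libraries lay above all controls, whereas R4KO_1 overlapped them. The log2 fold change was 1.35 ± 0.18 (SE) in R4KO_2 (2.55-fold, edgeR adjusted p = 9.38e-07) and 0.69 ± 0.18 in R4KO_1 (edgeR adjusted p = 0.00226). IL1B stood at 42.3, 43.0 and 38.8 CPM in R4KO_2, at 15.95, 23.1 and 36.1 in R4KO_1 and at 10.9, 12.6 and 10.8 in Ctrl Vehicle. Neither knockout overlapped the control, and the log2 fold changes were 1.86 ± 0.17 in R4KO_2 (3.62-fold, edgeR adjusted p = 3.76e-09) and 1.14 ± 0.18 in R4KO_1 (edgeR adjusted p = 1.19e-05). IL1RN, the antagonist, rose alongside its ligands, to 5.69, 8.21 and 8.01 CPM in R4KO_2 and 3.43, 3.99 and 4.90 in R4KO_1, against 1.70, 2.32 and 2.52 in Ctrl Vehicle. Neither knockout overlapped the control, with log2 fold changes of 1.74 ± 0.18 in R4KO_2 (edgeR adjusted p = 1.45e-08) and 0.92 ± 0.19 in R4KO_1 (edgeR adjusted p = 0.000273).

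IL18 went the other way from the IL-1 ligands. It stood at 45.7, 50.2 and 46.8 CPM in R4KO_2, at 40.6, 42.7 and 55.3 in R4KO_1 and at 60.8, 61.7 and 65.2 in Ctrl Vehicle. Every knockout library lay below every control, and the fall was 1.31-fold in R4KO_2 (log2 fold change −0.39 ± 0.08, edgeR adjusted p = 0.000108) and 1.35-fold in R4KO_1 (−0.43 ± 0.08, edgeR adjusted p = 4.27e-05).

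IL6 changed most of the 8 genes. It had 143, 148 and 126 counts in R4KO_2 and 86, 122 and 137 in R4KO_1, against 10, 21 and 18 in Ctrl Vehicle, or 7.30 ± 0.594, 6.14 ± 1.48 and 0.953 ± 0.328 CPM. The groups were far from overlapping, with a 7.62-fold rise in R4KO_2 (log2 fold change 2.93 ± 0.22, edgeR adjusted p = 1.18e-10) and a 6.43-fold rise in R4KO_1 (2.69 ± 0.23, edgeR adjusted p = 9.72e-10). IL6 shares 428 exon bases with the antisense gene AC073072.1, which averaged 1.13 counts, and the sources used here do not say whether counting used strand.

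IL11 stood at 24.2, 23.9 and 22.3 CPM in R4KO_2, at 10.3, 11.3 and 18.8 in R4KO_1 and at 10.4, 8.76 and 9.13 in Ctrl Vehicle. R4KO_2 lay wholly above the control (log2 fold change 1.32 ± 0.14, edgeR adjusted p = 4.61e-08), while R4KO_1 overlapped it (0.52 ± 0.16, edgeR adjusted p = 0.00607). LIF, which maintains epithelial and stem cell states through its own receptor chain and gp130, stood at 41.3, 49.7 and 42.3 CPM in R4KO_2, at 27.8, 38.3 and 55.8 in R4KO_1 and at 22.1, 25.8 and 22.6 in Ctrl Vehicle. Neither knockout overlapped the control, with log2 fold changes of 0.92 ± 0.15 in R4KO_2 (edgeR adjusted p = 1.28e-05) and 0.80 ± 0.15 in R4KO_1 (edgeR adjusted p = 9.11e-05). CLCF1 was at 10.01 ± 1.28 CPM in R4KO_2, 7.78 ± 1.57 in R4KO_1 and 9.87 ± 1.11 in Ctrl Vehicle, and the groups overlapped. Its log2 fold change was 0.02 in R4KO_2, with a 95% interval from −0.24 to 0.28, and −0.34 ± 0.13 in R4KO_1 (edgeR adjusted p = 0.0291).

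Relative to the mean, the R4KO_1 libraries spread more than those of any other group for all tested genes but IL1RN and IL6. Among them replicate 3 was highest for all 8 tested genes. Without it the IL11 call was lost in R4KO_1 (log2 fold change 0.20, edgeR adjusted p = 0.0961), and the CLCF1 call was lost without replicate 1 or 2 of either R4KO_1 or Ctrl Vehicle (edgeR adjusted p from 0.0868 to 0.146). The IL1A log2 fold change in R4KO_1 against Ctrl Vehicle ran from 0.279 to 0.955 when each library was left out in turn. Between the knockouts, 5 of 8 genes were higher in R4KO_2 than in R4KO_1, namely IL1A, IL1B, IL1RN, IL11 and CLCF1, with log2 fold changes from 0.36 to 0.82, where 15.1% of all genes were higher. All 8 were higher without R4KO_1 replicate 3, and the CLCF1 call was lost without R4KO_1 replicate 1 or 2 or R4KO_2 replicate 3. IL6 did not differ beyond its spread between R4KO_2 and R4KO_1, at 0.25 with a 95% interval from −0.06 to 0.55.

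**Figure D2:**
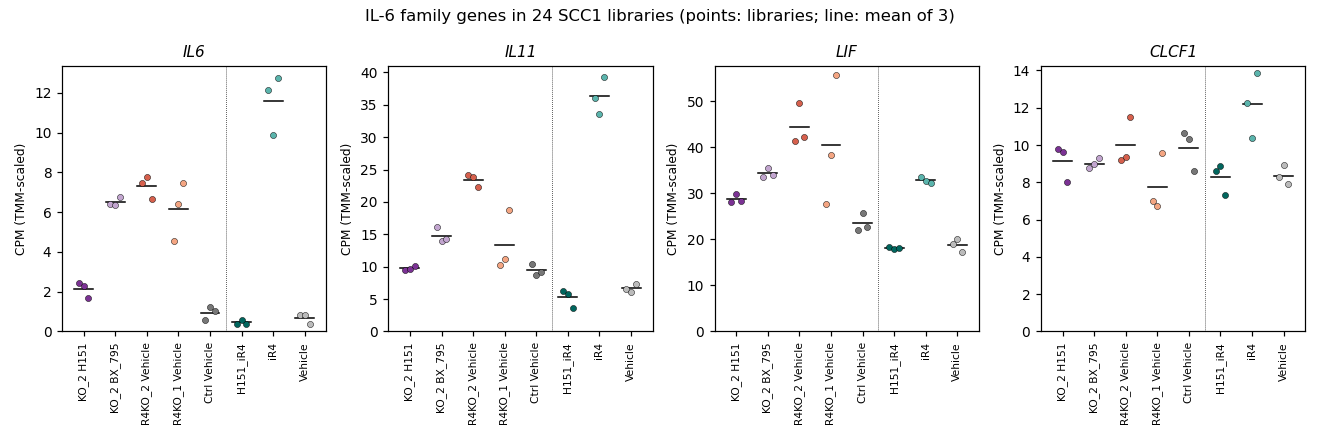
TMM-scaled CPM of 4 IL-6 family genes in each of 24 SCC1 libraries (points; line, mean of 3), arranged as for the IL-1 family. IL6 and IL11 peaked in iR4 at 11.6 and 36.3 CPM on average, LIF moved less, and CLCF1 means stayed between 7.78 and 12.2 CPM.

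Under iR4 the genes called higher in the knockouts rose, as did CLCF1, and several had larger log2 fold changes than under knockout. In iR4 7 of 8 tested genes were higher than in Vehicle and IL18 was not called, where 37.1% of 14000 genes were higher and 34.8% lower. At 2-fold or more, 5 of the 8 genes were higher, against 8.58% of all genes, and the median log2 fold change of the 8 was 2.08, against 0.02 over all genes. For 7 of the 8 genes the iR4 and Vehicle libraries did not overlap, as for 73.8% of all genes tested. The fibroblast markers summed to 34.0 to 39.8 CPM in iR4 against 22.5 to 25.7 in Vehicle, with 1 of 4 tested called higher and 0 lower. The myeloid markers summed to 29.03 to 29.7 CPM in iR4 against 13.45 to 16.7 in Vehicle, while the squamous markers overlapped. The part of these lists was not tested.

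IL1A stood at 142.1, 129.6 and 166.9 CPM in iR4 and at 22.3, 18.8 and 20.1 in Vehicle, and IL1B at 34.8, 27.6 and 32.4 CPM in iR4 and 5.58, 4.31 and 3.36 in Vehicle. Neither overlapped between the groups, and the log2 fold changes were close, at 2.85 ± 0.08 for IL1A (edgeR adjusted p = 1.04e-19) and 2.86 ± 0.12 for IL1B (edgeR adjusted p = 7.26e-17). IL1RN rose with a smaller log2 fold change, to 6.01, 4.94 and 5.68 CPM in iR4 against 1.70, 1.52 and 1.88 in Vehicle (log2 fold change 1.71 ± 0.15, edgeR adjusted p = 2.36e-10). IL18 was at 66.7 ± 3.42 CPM in iR4 and 62.8 ± 3.39 in Vehicle, with overlapping libraries and a log2 fold change of 0.09 (95% interval −0.02 to 0.21).

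IL6 had 271, 186 and 287 counts in iR4 and 15, 16 and 8 in Vehicle, a 17.3-fold rise (log2 fold change 4.11 ± 0.18, edgeR adjusted p = 3.79e-16). IL11, a cytokine best known from fibrosis and platelet production, stood at 36.1, 33.6 and 39.2 CPM in iR4 and at 6.62, 6.14 and 7.26 in Vehicle (2.45 ± 0.10, edgeR adjusted p = 5.32e-17). LIF rose to 32.9 ± 0.607 CPM in iR4 against 18.82 ± 1.423 in Vehicle (0.81 ± 0.06, edgeR adjusted p = 1.20e-11). CLCF1, a ligand of the ciliary neurotrophic factor receptor, was called here, at 12.3, 10.4 and 13.9 CPM in iR4 and 8.26, 8.93 and 7.90 in Vehicle (0.55 ± 0.10, edgeR adjusted p = 3.35e-05). None of these 4 genes overlapped between the groups.

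Each effect was set against its own control in a fit of all 24 libraries to test whether iR4 and knockout differed. The iR4 effect was higher than that of R4KO_1 for 7 of 8 genes and than that of R4KO_2 for 6 of 8, where 18.0% and 11.1% of all 14585 genes were higher. Both counts include IL18, not called in iR4 but lower in both knockouts, and CLCF1, not called higher in either knockout. Against R4KO_2 the differences on the log2 scale were 1.498 ± 0.25 for IL1A, 1.13 ± 0.21 for IL11, 1.18 ± 0.39 for IL6, 0.9985 ± 0.27 for IL1B, 0.53 ± 0.17 for CLCF1 and 0.49 ± 0.10 for IL18, with edgeR adjusted p from 7.78e-05 to 0.029. LIF did not differ, at −0.11 with a 95% interval from −0.50 to 0.28, nor did IL1RN, at −0.03 with an interval from −0.56 to 0.49. The IL6, IL1B and CLCF1 differences from R4KO_2 rested on single libraries: without Vehicle replicate 3 they were 0.90 (edgeR adjusted p = 0.122), 0.83 (0.0504) and 0.49 (0.0729). The IL6 call was also lost without Ctrl Vehicle replicate 2 or 3 or iR4 replicate 3. The CLCF1 call was also lost without Vehicle replicate 1, iR4 replicate 3, or replicate 1 or 2 of Ctrl Vehicle or R4KO_2. Against R4KO_1, the IL1RN difference of 0.80 was lost without Ctrl Vehicle replicate 3 (0.68, edgeR adjusted p = 0.0655), and LIF gained a call without R4KO_1 replicate 3 (0.31, edgeR adjusted p = 0.0447). The smaller fold changes of IL1A and IL1B in the knockouts came with the higher Ctrl Vehicle baseline given above. In mean CPM both were higher in R4KO_2 than in iR4, at 196.5 against 146.2 for IL1A and 41.4 against 31.6 for IL1B.

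**Figure D3:**
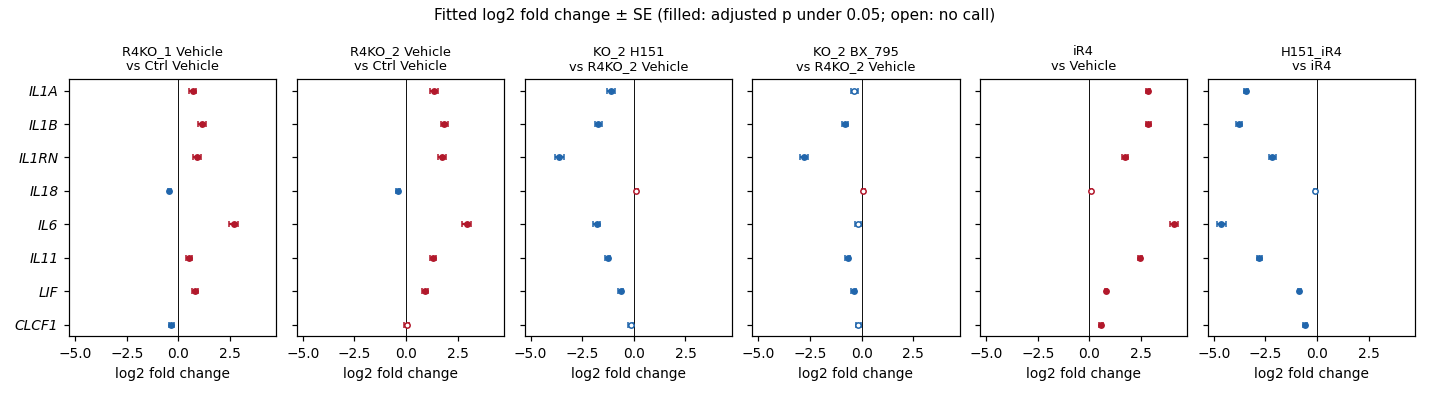
Fitted log2 fold change with SE of 8 cytokine genes in the 6 main comparisons (red, higher; blue, lower; filled, edgeR adjusted p under 0.05; open, no call). IL6 has the largest change in both knockouts, under iR4 and under H-151 in iR4 cells, and IL1RN has the largest fall in the 2 comparisons labelled KO_2.

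With H-151 in iR4 cells, the means of the genes that iR4 had raised lay below those of Vehicle, only slightly so for LIF and CLCF1. No group had H-151 or BX-795 in cells without iR4 or knockout, so their effect in such cells was not measured. In H151_iR4 7 of 8 genes were lower than in iR4, where 36.3% of all genes were lower and 35.1% higher, and IL18 was again not called. At 2-fold or more 5 of the 8 were lower, against 9.22% of all genes. IL1A stood at 15.2, 14.3 and 11.0 CPM in H151_iR4 against 142.1, 129.6 and 166.9 in iR4, a 10.9-fold fall (log2 fold change −3.45 ± 0.09, edgeR adjusted p = 1.33e-20). IL1B fell 13.7-fold, to 2.76, 2.43 and 1.82 CPM in H151_iR4 (−3.77 ± 0.14, edgeR adjusted p = 7.15e-18), and IL1RN 4.47-fold, to 1.38, 1.24 and 1.14 CPM (−2.16 ± 0.17, edgeR adjusted p = 1.75e-11). No H151_iR4 library overlapped iR4 for these 3 genes.

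IL6 had 6, 12 and 7 counts in H151_iR4 against 271, 186 and 287 in iR4, a 24.8-fold fall (log2 fold change −4.63 ± 0.20, edgeR adjusted p = 2.59e-16). IL11 fell to 6.25, 5.85 and 3.69 CPM in H151_iR4 (−2.79 ± 0.11, edgeR adjusted p = 1.72e-17). LIF fell to 18.1 ± 0.219 CPM (−0.86 ± 0.06, edgeR adjusted p = 5.41e-12) and CLCF1 to 8.26 ± 0.827 CPM (−0.57 ± 0.10, edgeR adjusted p = 3.16e-05). Every H151_iR4 library lay below every iR4 library for these 4 genes, although the share of all genes without overlap is not given for this comparison. Set against Vehicle, H151_iR4 was lower for 2 of 8 genes, where 9.58% of all genes were lower: IL1A with a log2 fold change of −0.60 ± 0.12 and IL1B with −0.91 ± 0.20 (edgeR adjusted p = 0.000601 and 0.00184). Both calls were lost with all 24 libraries in the fit (edgeR adjusted p = 0.122 for IL1A and 0.0563 for IL1B). LIF was at −0.06 against Vehicle, with a 95% interval from −0.20 to 0.09, and CLCF1 at −0.01 (−0.25 to 0.22). IL6 was at −0.52, with an interval from −1.32 to 0.27 that its few counts leave wide. The summed squamous markers were lower too, from 2015 to 2120 CPM in H151_iR4 against 3030 to 3082 in iR4 and 2950 to 3131 in Vehicle. The fibroblast markers summed to 25.5 to 27.5 CPM and the myeloid markers to 9.375 to 10.3 CPM in H151_iR4, also below every iR4 library. Of 4 fibroblast markers tested, 1 was higher and 2 lower in H151_iR4 than in iR4. The part of these lists in the cytokine differences was not tested.

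In the libraries labelled KO_2, H-151 went with lower IL1B and IL6 and a far lower antagonist, whichever knockout was the reference. LIF was called lower against both, but its libraries overlapped those of R4KO_1. The IL1A and IL11 differences from R4KO_1 depended on single libraries or on the settings. Against R4KO_2, 6 of 8 genes were lower and 0 higher, where 37.0% of all genes were lower and 35.7% higher. At 2-fold or more 5 of 8 were lower, against 9.94%. Against R4KO_1, the same 6 were lower and 0 higher, where 35.3% of all genes were lower and 33.0% higher. The summed squamous markers were lower in the same libraries, from 1946 to 2003 CPM in KO_2 H151 against 3310 to 3404 in R4KO_2 and 2825 to 3338 in R4KO_1. Of the 9 markers 1 was higher and 8 lower than in R4KO_2 (median log2 fold change −1.11), and 1 higher and 7 lower than in R4KO_1 (−1.003). The myeloid markers summed to 11.04 to 12.02 CPM in KO_2 H151, against 24.3 to 27.3 in R4KO_2 and 22.7 to 25.1 in R4KO_1. The fibroblast sum of 38.3 to 39.4 CPM overlapped both knockouts, although COL3A1 was at 0.189 ± 0.0839 CPM in KO_2 H151 against 5.76 ± 0.952 in R4KO_2 and 2.76 ± 0.687 in R4KO_1. The part of these lists in the cytokine differences was not tested.

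IL1RN stood at 0.684, 0.617 and 0.502 CPM in KO_2 H151, against 5.69, 8.21 and 8.01 in R4KO_2 and 3.43, 3.99 and 4.90 in R4KO_1. It was below every other group's libraries, and the fall was 12.2-fold against R4KO_2 (log2 fold change −3.61 ± 0.21, edgeR adjusted p = 1.08e-12) and 6.90-fold against R4KO_1 (−2.79 ± 0.23, edgeR adjusted p = 6.34e-10). It also lay 3.65-fold below Ctrl Vehicle (−1.87 ± 0.27, edgeR adjusted p = 5.95e-06). IL1A stood at 91.1, 92.8 and 92.3 CPM in KO_2 H151 and IL1B at 12.5, 12.7 and 12.7 CPM. Both lay below every R4KO_2 library, with log2 fold changes of −1.11 ± 0.17 for IL1A (edgeR adjusted p = 6.78e-06) and −1.73 ± 0.16 for IL1B (edgeR adjusted p = 2.62e-09). Against R4KO_1 IL1B was lower by −1.004 ± 0.17 (edgeR adjusted p = 2.06e-05), while the IL1A difference of −0.45 (edgeR adjusted p = 0.0292) came with overlapping libraries. That IL1A call was lost with DESeq2 (adjusted p = 0.117), with robust dispersion (edgeR adjusted p = 0.1375), with only the compared libraries (0.1225), and without any 1 of the KO_2 H151 libraries (0.0593 to 0.0689). Without R4KO_1 replicate 3 the IL1A difference was −0.04 (edgeR adjusted p = 0.759).

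IL6 had 57, 48 and 44 counts in KO_2 H151, or 2.14 ± 0.389 CPM, below every library of R4KO_2 and R4KO_1 and above every library of Ctrl Vehicle. Its log2 fold change was −1.79 ± 0.17 against R4KO_2 (edgeR adjusted p = 4.41e-09), −1.55 ± 0.18 against R4KO_1 (edgeR adjusted p = 9.33e-08) and 1.14 ± 0.27 against Ctrl Vehicle (edgeR adjusted p = 0.00123). IL11, at 9.78 ± 0.301 CPM, was lower than in R4KO_2 by −1.27 ± 0.14 (edgeR adjusted p = 2.19e-08), and against R4KO_1 by −0.47 ± 0.15 (edgeR adjusted p = 0.0071), a call lost without R4KO_1 replicate 3 (−0.15, edgeR adjusted p = 0.169). LIF, at 28.8 ± 0.890 CPM, was lower by −0.64 ± 0.14 against R4KO_2 (edgeR adjusted p = 0.000318) and −0.52 ± 0.14 against R4KO_1 (edgeR adjusted p = 0.00285). Its libraries overlapped those of R4KO_1, and that difference ran from −0.726 to −0.22 when each library was left out in turn. IL18 and CLCF1 were not called against either knockout in the fit of 15 libraries. IL18, at 0.12 against R4KO_2 and 0.15 against R4KO_1, was called higher than in R4KO_2 with no filter (0.13, edgeR adjusted p = 0.0433) and with only the compared libraries (0.12, 0.0256), and higher than in R4KO_1 with all 24 libraries (0.17, 0.0410), with no filter (0.17, 0.00881) and without R4KO_1 replicate 3 (0.30, 3.43e-05). CLCF1, at −0.15 and 0.21, was called higher than in R4KO_1 without that library (0.385, edgeR adjusted p = 0.00756). Against Ctrl Vehicle 1 of 8 genes was higher (IL6) and 2 lower (IL1RN and IL18), where 26.0% of all genes were higher and 26.9% lower.

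With BX-795 the picture depended on which knockout was the reference. Against R4KO_2, 4 of 8 genes were lower and 0 higher, where 37.1% of all genes were lower and 36.4% higher, and against R4KO_1 only IL1RN was lower and 0 higher, where 35.2% of all genes were lower and 33.8% higher. The squamous markers summed to 2500 to 2557 CPM in KO_2 BX_795, with 6 of 9 lower than in either knockout and 2 higher than in R4KO_2 and 3 higher than in R4KO_1, and the myeloid markers to 9.39 to 11.5 CPM, both below every library of R4KO_2 and R4KO_1. The fibroblast markers, mostly COL1A1, summed to 46.4 to 47.9 CPM, above every library of either knockout. Yet of 3 tested, 1 was higher and 2 lower than in R4KO_2 (median log2 fold change −4.04). Against R4KO_1, 1 was also higher and 2 lower (median −2.94). The part of these lists was not tested. IL1RN stood at 1.05, 1.19 and 0.951 CPM in KO_2 BX_795, below every library of either knockout and of Ctrl Vehicle. The log2 fold change was −2.79 ± 0.19 against R4KO_2 (edgeR adjusted p = 1.02e-11), −1.97 ± 0.21 against R4KO_1 (edgeR adjusted p = 2.18e-08) and −1.05 ± 0.24 against Ctrl Vehicle (edgeR adjusted p = 0.000778). IL6 was not called against either knockout, with 159, 133 and 185 counts or 6.51 ± 0.224 CPM in KO_2 BX_795. It overlapped R4KO_2 (log2 fold change −0.17, 95% interval −0.47 to 0.12) and R4KO_1 (0.07, −0.23 to 0.38) and lay 6.76-fold above Ctrl Vehicle (2.76 ± 0.22, edgeR adjusted p = 7.17e-10).

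IL1A stood at 150.1, 158.9 and 156.8 CPM in KO_2 BX_795, below every R4KO_2 library, yet the log2 fold change of −0.35 ± 0.17 missed the threshold (edgeR adjusted p = 0.0664). It passed in 4 of the other settings tried, named in the closing section. IL1B, at 24.2 ± 1.81 CPM, was lower than in R4KO_2 by −0.79 ± 0.15 (edgeR adjusted p = 5.70e-05) and IL11, at 14.8 ± 1.14 CPM, by −0.68 ± 0.13 (edgeR adjusted p = 6.30e-05). LIF, at 34.3 ± 0.9752 CPM, was lower by −0.39 ± 0.14 (edgeR adjusted p = 0.0153), a call lost with DESeq2 (adjusted p = 0.0694), with robust dispersion (edgeR adjusted p = 0.0875) and without R4KO_2 replicate 2 (edgeR adjusted p = 0.0881). Against R4KO_1 these genes overlapped, with 95% intervals from −0.05 to 0.66 for IL1A, −0.39 to 0.26 for IL1B, −0.16 to 0.41 for IL11 and −0.55 to 0.03 for LIF. R4KO_1 replicate 3 mattered here too: without it IL1A was at 0.72 and IL1B at 0.29 (edgeR adjusted p = 1.26e-07 and 0.00989), and 6 of 8 genes were called, IL1RN, IL1A, IL1B, IL11, IL18 and CLCF1. Without R4KO_1 replicate 1 there were 3 calls, with IL1B at −0.31 (edgeR adjusted p = 0.0135) and LIF at −0.47 (edgeR adjusted p = 0.00011) added to IL1RN. Against Ctrl Vehicle 5 of 8 genes were higher and 2 lower, where 27.7% of all genes were higher and 28.0% lower, and IL1RN and IL18 were those below it.

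Between the inhibitors, whose doses are not given, 4 of 8 genes were higher with BX_795 than with H151, where 5.67% of all genes were. IL6 differed most, 3.07-fold (log2 fold change 1.62 ± 0.17, edgeR adjusted p = 1.54e-06), then IL1B (0.94 ± 0.17, edgeR adjusted p = 0.000785), IL1A (0.76 ± 0.17, edgeR adjusted p = 0.00739) and IL11 (0.60 ± 0.14, edgeR adjusted p = 0.00792). IL11 lost its call without KO_2 BX_795 replicate 1 (0.53, edgeR adjusted p = 0.0506), and IL1A lost its call with robust dispersion (edgeR adjusted p = 0.0867). IL1RN was not called at 0.82, with a 95% interval from 0.20 to 1.43 (edgeR adjusted p = 0.0884). It was called with no filter (edgeR adjusted p = 0.0479) and with only the compared libraries (0.0299), as was LIF (0.00206 and 0.000542).

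**Figure D4:**
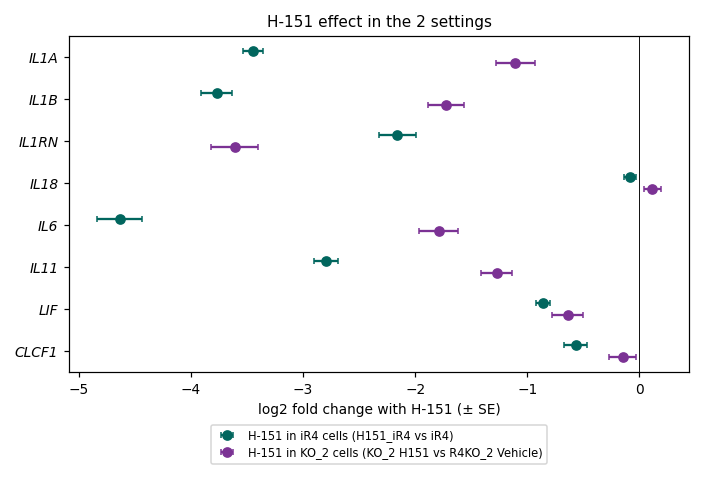
Log2 fold change with SE of 8 cytokine genes under H-151 in iR4 cells (H151_iR4 vs iR4, green) and in KO_2 cells (KO_2 H151 vs R4KO_2 Vehicle, purple). IL1A, IL1B, IL6 and IL11 fell further in iR4 cells, and IL1RN fell further in KO_2 cells.

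The H-151 effects in the 2 settings were compared in the fit of all 24 libraries. The effect in iR4 cells was lower than that in KO_2 cells for 5 of 8 genes and higher for IL1RN, where 27.0% of all genes were lower and 23.7% higher. The differences were −2.85 ± 0.34 for IL6, −2.35 ± 0.27 for IL1A, −2.06 ± 0.30 for IL1B, −1.53 ± 0.21 for IL11 and −0.43 ± 0.17 for CLCF1, with edgeR adjusted p from 1.58e-08 to 0.0379. IL1RN stood alone in the other direction, at 1.44 ± 0.31 (edgeR adjusted p = 0.000316). LIF was not called, at −0.23 with a 95% interval from −0.61 to 0.15, though it was with no filter (−0.24, edgeR adjusted p = 0.0364). The CLCF1 call was lost with DESeq2 (adjusted p = 0.0506) and in 7 of the 12 fits without 1 library: H151_iR4 replicate 3, iR4 replicate 1 or 3, and replicate 1 or 2 of KO_2 H151 or R4KO_2. Since the KO_2 libraries share features with R4KO_1, inhibitor, knockout line and a possible batch cannot be told apart in the KO_2 effect.

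**Figure D5:**
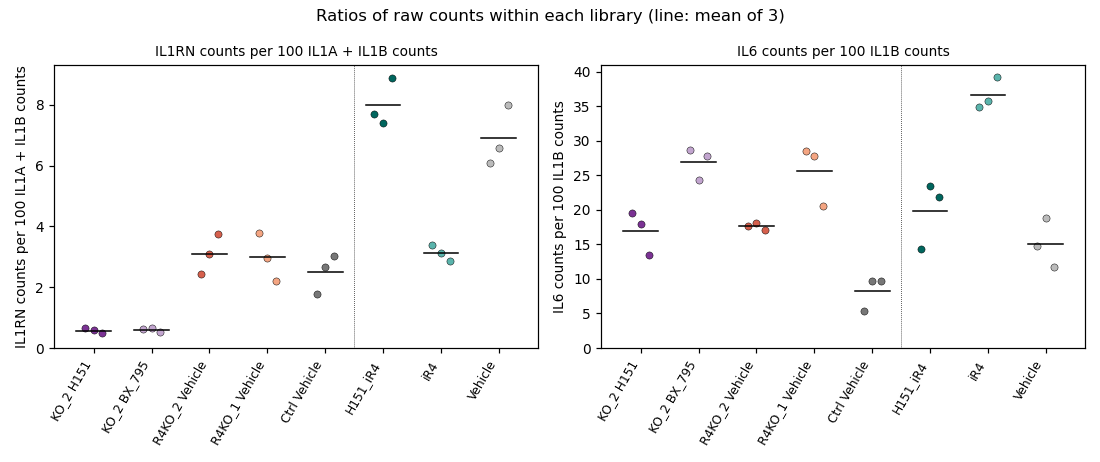
Raw counts of IL1RN per 100 counts of IL1A and IL1B together (left) and of IL6 per 100 counts of IL1B (right) in each of 24 SCC1 libraries (points; line, mean of 3). The antagonist share is lowest in the 2 groups labelled KO_2, from 0.479 to 0.660, and the IL6 ratio is highest in iR4, from 34.9 to 39.3.

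Ratios within a library do not depend on depth and set the mRNA counts of antagonist and ligands side by side. They are not scaled by length and do not measure protein, cleavage or release. IL1RN had only 16, 13 and 13 counts in KO_2 H151. IL1RN had 0.575 ± 0.0914 counts per 100 counts of IL1A and IL1B with H151 and 0.593 ± 0.0614 with BX_795 in the KO_2 libraries, against 3.09 ± 0.654 in R4KO_2, 2.99 ± 0.797 in R4KO_1 and 2.49 ± 0.645 in Ctrl Vehicle. The KO_2 libraries lay below all others, and the knockouts overlapped the control. In the iR4 experiment the ratio was 7.996 ± 0.786 in H151_iR4, 3.13 ± 0.274 in iR4 and 6.89 ± 0.992 in Vehicle. It was lower in every iR4 library than in any H151_iR4 or Vehicle library, and H151_iR4 and Vehicle overlapped. IL6 had 17.6 ± 0.510 counts per 100 counts of IL1B in R4KO_2 and 25.6 ± 4.35 in R4KO_1, against 8.26 ± 2.50 in Ctrl Vehicle, and 36.7 ± 2.33 in iR4 against 15.1 ± 3.55 in Vehicle. It was above the control in every knockout and iR4 library. IL1A and IL1B kept a closer balance, with group means from 4.64 to 7.29 counts of IL1A per count of IL1B.

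Other genes of these pathways, from lists chosen with earlier results of these data known, were read against the shares of all genes. These were 34.0% higher and 32.2% lower in R4KO_2, 33.0% and 31.4% in R4KO_1, 37.1% and 34.8% in iR4, and 35.1% and 36.3% in H151_iR4 against iR4. In KO_2 H151 they were 35.7% higher and 37.0% lower against R4KO_2 and 33.0% and 35.3% against R4KO_1, and in KO_2 BX_795 36.4% and 37.1% against R4KO_2 and 33.8% and 35.2% against R4KO_1. Of 11 tested genes that IL-1 induces in many cells, 8 were higher and 0 lower in R4KO_2, 9 higher and 2 lower in R4KO_1, 10 higher and 1 lower in iR4, and 0 higher and 10 lower in H151_iR4 against iR4. Their median log2 fold changes were 1.68, 1.17, 2.21 and −2.48, each against −0.01 to 0.02 over all genes. The neutrophil chemokine CXCL8 was at 12.3 ± 0.713 CPM in R4KO_2 and 8.46 ± 5.22 in R4KO_1, against 0.644 ± 0.358 in Ctrl Vehicle (edgeR adjusted p = 3.93e-09 and 1.09e-07). PTGS2, the inducible prostaglandin synthase COX-2, was at 8.39 ± 1.08 CPM in H151_iR4, 107.1 ± 13.9 in iR4 and 13.2 ± 2.35 in Vehicle, 8.18-fold up in iR4 and 12.8-fold down with H-151 (edgeR adjusted p = 3.01e-19 and 4.07e-20). In KO_2 H151 this list split, with 4 higher and 3 lower than in R4KO_2 and 6 higher and 3 lower than in R4KO_1. In KO_2 BX_795 7 were higher and 3 lower than in R4KO_2, and 8 higher and 1 lower than in R4KO_1. PTGS2 fell to 27.7 ± 1.26 CPM in KO_2 H151, against 125.5 ± 12.3 in R4KO_2 and 63.9 ± 27.4 in R4KO_1 (edgeR adjusted p = 1.26e-10 and 2.56e-06). The chemokine CCL20 rose to 11.0 ± 0.749 CPM with H151 and 18.5 ± 0.347 with BX_795 in the KO_2 libraries, against 2.03 ± 0.246 in R4KO_2 (edgeR adjusted p = 8.17e-13 and 3.04e-15) and 1.18 ± 0.500 in R4KO_1 (7.82e-14 and 9.87e-16).

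On the IL-6 side, 6 of 9 tested STAT3 targets and feedback genes were higher and 0 lower in each knockout, 8 were higher and 1 lower in iR4, and 0 were higher and 7 lower in H151_iR4 against iR4. The median log2 fold changes were 0.62 in R4KO_2, 0.74 in R4KO_1, 1.36 in iR4 and −1.21 in H151_iR4. SOCS3, the inhibitor that STAT3 induces against its own receptors, was at 9.78 ± 1.09 CPM in H151_iR4, 32.4 ± 4.26 in iR4 and 7.94 ± 1.20 in Vehicle (edgeR adjusted p = 5.56e-14 for H151_iR4 against iR4 and 3.22e-15 for iR4 against Vehicle). BCL3 was at 24.4 ± 2.54 CPM in R4KO_2 and 22.01 ± 5.75 in R4KO_1, against 10.8 ± 0.197 in Ctrl Vehicle (edgeR adjusted p = 2.67e-07 and 2.26e-06). In KO_2 H151 3 of the 9 were higher and 5 lower than in either knockout, with medians of −0.60 against R4KO_2 and −0.55 against R4KO_1. In KO_2 BX_795 2 were higher and 5 lower than in R4KO_2 (median −0.24), while 3 were higher and 3 lower than in R4KO_1 (median −0.004). STAT3 itself was at 161.2 ± 6.12 CPM in R4KO_2 and 181.1 ± 15.8 in R4KO_1, against 114.4 ± 4.397 in Ctrl Vehicle (edgeR adjusted p = 1.39e-08 and 1.29e-10).

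Of 6 tested IL-6 family receptors 4 were higher and 0 lower in R4KO_2, where 34.0% of all genes were higher, 4 higher and 1 lower in R4KO_1 (33.0%), and 6 higher and 0 lower in iR4 (37.1%). IL6R, the IL-6-binding chain, was at 145.8 ± 10.3 CPM in R4KO_2 and 135.1 ± 14.1 in R4KO_1, against 87.7 ± 1.19 in Ctrl Vehicle, and at 98.8 ± 0.791 in iR4 against 57.1 ± 1.47 in Vehicle (edgeR adjusted p from 3.78e-14 to 5.56e-09). IL6R was lower with either drug in the KO_2 libraries, at 59.5 ± 1.10 CPM with H151 and 50.7 ± 1.81 with BX_795 (edgeR adjusted p = 1.88e-14 and 1.66e-15 against R4KO_2, and 1.16e-13 and 9.997e-15 against R4KO_1). Of 7 tested IL-1 family receptors and binding proteins 4 were higher and 1 lower in R4KO_2, and 3 higher and 1 lower in R4KO_1, where 34.0% and 33.0% of all genes were higher. IL1RL1, the IL-33 receptor, was at 11.7 ± 2.13 CPM in R4KO_2 and 1.48 ± 0.185 in R4KO_1, against 1.97 ± 0.357 in Ctrl Vehicle, and at 2.70 ± 0.200 in H151_iR4, 25.2 ± 4.51 in iR4 and 4.399 ± 0.666 in Vehicle (edgeR adjusted p = 8.06e-11 for R4KO_2, 0.200 for R4KO_1, 1.60e-16 for H151_iR4 against iR4 and 1.65e-15 for iR4 against Vehicle). Of 6 other IL-1 family ligands none had counts enough to be tested in either experiment.

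Signalling components were called in both directions, in lists too short to be set apart from the shares over all genes. In R4KO_2 34.0% of all genes were higher and 32.2% lower, in R4KO_1 33.0% and 31.4%, and in iR4 37.1% and 34.8%. Of 12 tested IL-1 receptor signalling genes 6 were higher and 3 lower in R4KO_2 and 5 higher and 3 lower in R4KO_1, and in iR4 6 of 11 were higher and 3 lower. Of 7 JAK and STAT genes 4 were higher and 1 lower in each knockout, and 4 higher and 2 lower in iR4. With H-151, 5 of the 7 were lower and 1 higher in KO_2 H151 than in either knockout, where 37.0% of all genes were lower against R4KO_2 and 35.3% against R4KO_1, and 5 were lower and 2 higher in H151_iR4 than in iR4, where 36.3% were lower.

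Of 4 tested other IL-6 family ligands 3 were higher and 1 lower in each knockout, and 2 higher and 1 lower in iR4, too few for a reading against 34.0%, 33.0% and 37.1% of all genes higher. CNTF, an IL-6 family ligand of neurons and glia, was at 0.717 ± 0.0775 CPM in R4KO_2 and 0.763 ± 0.0727 in R4KO_1, against 2.16 ± 0.451 in Ctrl Vehicle (edgeR adjusted p = 9.56e-06 and 1.98e-05). It was at 1.83 ± 0.0747 CPM in H151_iR4, 0.447 ± 0.161 in iR4 and 2.18 ± 0.214 in Vehicle. CNTF thus fell in each knockout and in iR4 and rose with H-151 in iR4 cells (edgeR adjusted p = 3.38e-07), and it was also higher in both KO_2 drug groups than in either knockout. In KO_2 BX_795 it was 2.79-fold higher than in R4KO_2 (edgeR adjusted p = 9.89e-06), where IL6 was not called.

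Of 11 tested inflammasome and processing genes, 9 were higher and 2 lower in R4KO_2, 6 higher and 1 lower in R4KO_1, and 6 higher and 2 lower in iR4, where 34.0%, 33.0% and 37.1% of all genes were higher. With H-151 1 was higher and 8 lower in KO_2 against R4KO_2, 0 higher and 10 lower in KO_2 against R4KO_1, and 1 higher and 7 lower in H151_iR4 against iR4, where 37.0%, 35.3% and 36.3% of all genes were lower. AIM2, a sensor of cytosolic DNA, was at 0.509 ± 0.0859 CPM with H151 and 0.589 ± 0.350 with BX_795 in the KO_2 libraries, against 8.002 ± 1.28 in R4KO_2 (edgeR adjusted p = 3.44e-12 and 4.87e-12) and 4.82 ± 1.05 in R4KO_1 (6.205e-10 and 1.14e-09). PYCARD, of the same list, stood at 1.33 ± 0.374 CPM in KO_2 H151 and 1.63 ± 0.242 in KO_2 BX_795. Both were above R4KO_2, at 0.297 ± 0.131 (edgeR adjusted p = 4.90e-06 and 3.70e-07). R4KO_1 was at 2.18 ± 0.104, against 0.097 ± 0.034 in Ctrl Vehicle (edgeR adjusted p = 2.30e-09). Inhibitor, knockout line and a possible batch cannot be told apart in the KO_2 differences. AIM2 was at 0.268 ± 0.127 in H151_iR4, 1.91 ± 0.313 in iR4 and 0.543 ± 0.257 in Vehicle. CASP1, which encodes caspase-1 and is named here after its values were seen, was at 16.9 ± 0.413 CPM in KO_2 H151, 67.0 ± 3.06 in R4KO_2, 64.7 ± 6.52 in R4KO_1 and 50.7 ± 2.52 in Ctrl Vehicle. It was 1.32-fold higher in R4KO_2 than in Ctrl Vehicle (edgeR adjusted p = 1.14e-05) and 4.002-fold lower in KO_2 H151 than in R4KO_2 (edgeR adjusted p = 3.50e-16), and it was also lower there than in R4KO_1 (8.45e-16).

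Among 8 factors of cytokine mRNA decay and stability, 3 were higher and 3 lower in each knockout and 5 higher and 3 lower in iR4. The counts in the knockouts are near the shares over all genes, 34.0% higher and 32.2% lower in R4KO_2 and 33.0% and 31.4% in R4KO_1, and in iR4 37.1% of all genes were higher and 34.8% lower. ARID5A, which stabilises IL6 mRNA in mouse, was at 19.1 ± 1.48 CPM in R4KO_2 and 15.9 ± 2.24 in R4KO_1, against 9.75 ± 1.77 in Ctrl Vehicle (edgeR adjusted p = 2.25e-07 and 2.06e-05), and at 8.22 ± 0.281 in H151_iR4, 25.6 ± 0.995 in iR4 and 9.45 ± 1.20 in Vehicle. ZC3H12A, the nuclease Regnase-1 that cuts IL6 mRNA, was at 69.6 ± 1.56 CPM with H151 and 85.7 ± 4.95 with BX_795 in the KO_2 libraries, against 33.0 ± 1.89 in R4KO_2 (edgeR adjusted p = 2.03e-08 and 2.56e-10) and 44.1 ± 12.3 in R4KO_1 (2.12e-05 and 7.57e-08). ZFP36L1, a decay factor for AU-rich mRNAs such as those printed above, was at 53.9 ± 4.55 CPM in H151_iR4, 132.9 ± 6.53 in iR4 and 54.3 ± 3.05 in Vehicle. It was 2.46-fold higher in iR4 than in Vehicle and 2.46-fold lower in H151_iR4 than in iR4 (edgeR adjusted p = 3.55e-17 and 4.56e-17).

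Across the 8 group means, the genes most like IL1A among 11891 genes were NFKBIZ (Pearson r = 0.979 of log2 CPM) and CD274 (0.972), and the same 2 were most like IL1B (0.986 and 0.979). IL1RN was most like APOBEC3B (0.992) and PDE5A (0.986), IL6 most like FAM167A (0.985) and TNFRSF9 (0.984), IL11 most like RGS3 (0.991) and RPL13AP20 (0.984), LIF most like CSF1 (0.986) and RNF215 (0.985), IL18 most like FEM1A (0.984) and NRDE2 (0.967), and CLCF1 most like KATNA1 (0.963) and SH3TC2 (0.949). RPL13AP20 is a pseudogene whose reads may belong to related genes. IL1A and IL1B followed each other closely (r = 0.983), and IL1RN followed IL1A less (0.434). These values describe 8 groups that share controls and experiments, and between 11 and 397 genes reached a correlation of 0.9 with each cytokine.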

How the data were processed

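RNA from SCC1 cells and mouse tumors was sequenced, and the authors deposited raw read counts per gene, 1 library per file. HISAT2 2.2.1, featureCounts 2.0.1, Trim Galore 0.6.4, FastQC 0.11.9 and DESeq2 1.42.0 are named, with no roles and with the builds hg38 and mm10, per the submitters' processing notes. Neither the annotation nor the strand setting is stated in the sources used here. Libraries were grouped by their labels.

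Counts were tested with edgeR 4.0.16 (R 4.3.3) as quasi-likelihood F tests with TMM factors, after a filter on low counts (filterByExpr, minimum 10), with Benjamini-Hochberg adjustment over all genes at 0.05. The knockout experiment (15 libraries, 14348 genes) and the iR4 experiment (9 libraries, 14000 genes) were fitted separately. Differences between experiments came from a fit of all 24 SCC1 libraries (14585 genes). Levels are CPM with TMM factors over the 24 libraries. SE was the log2 fold change divided by the root of F. Counts limit precision most for IL36G, IL1RN and IL6, and total counts ran from 16.04 to 27.94 M.

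The members and gene lists were chosen with earlier results of these data known. Genes named from a list are among the 2 largest changes past the threshold in a main comparison with groups that do not overlap and an average of at least 0 log2 CPM. Not every such gene is named, and CASP1 was added after its values were seen. Likeness names the 2 genes with the highest correlation over 8 groups. Alternatives were DESeq2, other scaling factors and filters, robust dispersion, other sets of libraries in the fit, a replicate block, and leaving out each library. Replicate numbers were not taken as pairs, as the labels do not say whether they pair libraries.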

Additional observations from a re-analysis of the deposited data

Results flagged for a closer look

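The H-151 effect differed between iR4 cells and the KO_2 cells for 6 genes by a test of the difference itself (log2 scale, edgeR adjusted p given in the report). The differences were −2.35 for IL1A, −2.06 for IL1B, −2.85 for IL6, −1.53 for IL11 and −0.43 for CLCF1, each a deeper fall in iR4 cells, and 1.44 for IL1RN, a deeper fall in KO_2 cells. The libraries labelled KO_2 share features with R4KO_1, and with R4KO_1 as the reference the fall of IL1RN in KO_2 H151 was still 6.90-fold. PXDN, among the genes high in R4KO_1, was at 10.9 CPM with H151 and 12.5 with BX_795 in the KO_2 libraries, against 0.140 in R4KO_2 and 8.04 in R4KO_1.

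The 4 mouse tumor libraries, 2 R4KO and 2 Wt, were outside the comparisons of the report. Il36g stood at 113.5 and 236.9 CPM in R4KO tumors and 56.4 and 108.4 in Wt tumors, a ratio of means of 2.127. Lif stood at 11.9 and 13.3 CPM in R4KO tumors and 4.34 and 9.73 in Wt tumors, a ratio of 1.79. Of 9 mouse orthologs these 2 had both R4KO tumors above both Wt tumors, and Il18 and Il11 had both below. Il36g and Lif were picked by that separation, which says little with 2 tumors a group. Its share over all mouse genes was not counted. The leukocyte gene Ptprc also stood higher, at 16.8 and 28.4 CPM in R4KO tumors and 3.10 and 7.88 in Wt tumors, and its part in these differences was not tested. Il6 was at 0.619 and 0.384 CPM in R4KO tumors and 0.564 and 2.38 in Wt tumors. The differences in mouse tumors were not tested.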

How the results depend on the processing

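Of 720 values of 48 log2 fold changes in the 6 main comparisons under other settings, 699 kept their direction and side of the threshold, 9 lost a call, 10 gained one and 2 turned round. IL1A in KO_2 BX_795 against R4KO_2 passed with all 24 libraries (adjusted p = 0.0451), upper-quartile factors (0.0460), no filter (1.72e-12) and only the compared libraries (1.26e-06). IL18 gained a call with upper-quartile factors in iR4 (0.0242) and H151_iR4 (0.0365), without Vehicle replicate 1 in iR4 (0.0467) and without H151_iR4 replicate 1 in H151_iR4 (0.0471), and in KO_2 H151 against R4KO_2 with no filter (0.0433) and only the compared libraries (0.0256). CLCF1 in R4KO_1 lost its call with only the compared libraries (0.0591). The number of cytokine genes called was 3 for R4KO_2 against R4KO_1 with only the compared libraries (5 in the report), where IL1A (adjusted p = 0.0757) and CLCF1 (0.0981) were lost. Robust dispersion also lost IL1A there (0.0674), IL1A in H151_iR4 against Vehicle (0.0817) and IL1B in the iR4 effect minus the R4KO_2 effect (0.0552). It was 6 with no filter and 5 with only the compared libraries for KO_2 H151 against Ctrl Vehicle (3), 4 with no filter for KO_2 BX_795 against R4KO_1 (1), and 0 with all 24 libraries and 1 with robust dispersion for H151_iR4 against Vehicle (2). All genes called for KO_2 BX_795 against KO_2 H151 numbered 2653 with only the compared libraries, against 1387. The cause was not tested.

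Leaving out 1 library gave 4 to 8 cytokine calls for R4KO_2 against R4KO_1, 1 to 6 for KO_2 BX_795 against R4KO_1, 3 to 6 for the iR4 effect minus the R4KO_2 effect, and 814 to 1015 genes for KO_2 BX_795 against KO_2 H151. The log2 fold changes that turned round did so only in these fits and were not called in the report. They ran from −0.088 to 0.082 for CLCF1 in R4KO_2 against Ctrl Vehicle, −0.048 to 0.184 for IL18 and −0.086 to 0.420 for LIF in R4KO_2 against R4KO_1, −0.110 to 0.042 for CLCF1 in KO_2 BX_795 against KO_2 H151, and −0.008 to 0.121 for IL11 in KO_2 H151 against Ctrl Vehicle. In KO_2 BX_795 against R4KO_1 they ran from −0.307 to 0.290 for IL1B, −0.105 to 0.233 for IL6, −0.033 to 0.444 for IL11 and −0.471 to 0.035 for LIF. In H151_iR4 against Vehicle they ran from −0.039 to 0.086 for IL18 and −0.075 to 0.065 for CLCF1. For the iR4 effect they ran from −0.195 to 0.312 for LIF minus R4KO_1 and −0.185 to 0.116 for IL1RN minus R4KO_2.

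A replicate block left 128 of 128 cytokine log2 fold changes on their side of the threshold. With it, 9225 genes were called in R4KO_1 and 9439 in R4KO_2 against Ctrl Vehicle, 10392 with H151 and 10484 with BX_795 against R4KO_2, 10058 in iR4 against Vehicle and 9940 in H151_iR4 against iR4. Same-numbered libraries had deviations correlated from −0.07 to 0.19 over 39 pairs, and no comparison had every pair above 0.1, so the numbers were not taken as pairs. In KO_2 H151 against R4KO_2 every sample correlated best with its own number, a hint from the data and not the design. Scaling moved the median of all genes by at most 0.045. Depth limits IL6 in control and H151_iR4 libraries, IL1RN in the KO_2 drug libraries and IL36G throughout.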
